A study of Rattus norvegicus with 9 samples.

Results

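RNA signals were followed for 9 of the 10 genes of a thin filament and myosin light chain set in an aging laryngeal muscle of the rat. All 10 encode components or regulators of the muscle sarcomere. The genes were chosen by name, as every probe set of the array whose single annotated gene symbol was *Tpm1*, *Tnnc2*, *Tnnt3*, *Tnni2*, *Tnni1*, *Tnnt1*, *Myl1*, *Myl2*, *Mybpc2* or *Mylk2*. This gave 15 of 8740 probe sets, or 9 of 4736 genes named alone on a probe set. *Tnnt1*, the gene of slow troponin T, was the sole symbol of none of the probe sets, so no signal of it is given. The muscle was the posterior cricoarytenoid, which opens the vocal folds, at 6, 18 and 30 months of age. There were 3 Affymetrix Rat Genome U34 arrays per age. The RNA on each came from a pool of 4 animals, and errors below therefore measure the spread between pools. The sources used here name no strain, sex or treatment for any age. The study took 6 months as its baseline and asked what age does to gene expression in this muscle.

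In striated muscle, calcium binds troponin C on the thin filament, troponin I then releases actin, and troponin T ties the complex to tropomyosin, which uncovers the sites where myosin attaches. Fast and slow fibres build this switch from different genes, and they also use different myosin light chains and different forms of myosin-binding protein C. The posterior cricoarytenoid is a respiratory muscle with mostly fast fibres and some slow ones. Because whole muscle was measured, a lower signal from fewer fibres of a type cannot be told apart from less RNA per fibre.

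Markers of skeletal muscle were strong. *Myh13*, the superfast myosin heavy chain gene of eye and laryngeal muscles, averaged 11394, 11129 and 11093 at 6, 18 and 30 months. The summed signal of 7 fast-fibre marker genes was 141696 to 167888 at 18 months, against 116408 to 134610 at 6 months. Cartilage markers summed to at most 152 on any array and epithelial markers to at most 265, whereas fibroblast markers reached 20000.4. Thyroid markers summed to 389 to 1062.5 at 18 months and 449 to 971 at 30 months, against 488 to 519.6 at 6 months. The thyroglobulin gene *Tg* read 628 on the third 18-month array and 555 on the third 30-month array, against 30.2 to 109 on the other 7. Without the third 18-month array the 18-month log2 change of *Myl2*, the slow regulatory light chain gene, was 0.58, and without the third 30-month array its 30-month change was 0.42. The highest signal of an array was 33650 to 48488 and the 3′ to 5′ ratio of *Gapdh* control probe sets was 1.03 to 1.17.

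None of the 14 member probe sets bright enough to be tested passed an adjusted p of 0.05 in any comparison (limma, Benjamini-Hochberg over 5244 probe sets). Over all tested probe sets 0.0763% passed at 18 against 6 months, 0.324% at 30 against 6 months and 0.0191% at 30 against 18 months. For any difference among the ages, 0.267% passed. At an unadjusted p under 0.05 there were 3 members higher at 18 months and 4 higher at 30 months, both against 6 months, and 0 lower. Over all tested probe sets 2.99% and 4.18% were higher and 5.63% and 8.73% lower. The 3 at 18 months were all probe sets of 1 gene, *Myl2*, and the 4 at 30 months were probe sets of *Myl2*, *Tnnt3* and *Mybpc2*. The count at 30 months was 1 without the third 6-month or without the second 30-month array, and 0 after centring each array on the 100 brightest other probe sets, a step chosen after the data were seen. The count at 18 months was 3 after that centring, 6 without the first 6-month array and 5 without the second 18-month array. The F-test over the 3 ages gave 4 members at that level, against 8.92% of all tested, with 2 left without the third 6-month array and 1 after the centring. In the comparison of 30 with 18 months no member had an unadjusted p under 0.05. Groups without overlap were found for 4 members higher at 18 months than at 6 months (5.32% of all tested), 3 higher at 30 months than at 6 months (7.4%) and 1 lower at 30 months than at 18 months (4.18%). The 4 of the F-test and the 4 higher without overlap at 18 months were probe sets of *Myl2* and *Mybpc2* alone. No member was lower without overlap at 18 or 30 months than at 6 months, against 8.35% and 14.8% of all tested. The 2 comparisons with 6 months share their baseline arrays, so their values are given side by side and not as separate evidence.

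*Myl2*, which encodes the regulatory light chain of slow and cardiac myosin, had the lowest p among the members. Its brightest probe set, X07314cds_g_at, read 6932.5, 9486 and 6933 in the 6-month pools, 12104, 10925 and 13032.5 in the 18-month pools and 9335, 11313 and 10399 in the 30-month pools. All 18-month pools lay above all 6-month pools, and the 30-month pools overlapped both. The mean was 12020 ± 1056 at 18 months, against 7784 ± 1474 at 6 months (SD, n = 3 arrays each), a ratio of 1.54 and a log2 change of 0.64 with a standard error of 0.15 (unadjusted p = 0.00198, adjusted p = 0.288 by limma). At 30 months the mean was 10349 ± 989.6 (SD, n = 3 arrays), a log2 change of 0.42 from 6 months (adjusted p = 0.329 by limma).

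The other *Myl2* probe sets lay on the same side. X07314cds_at, from the same accession and so not an independent reading, had a log2 change of 0.60 at 18 months (SE 0.13, unadjusted p = 0.00129, adjusted p = 0.246 by limma) and of 0.39 at 30 months. It was also the member whose 30-month pools all lay below the 18-month pools, with means of 9380.1 ± 576 at 30 months and 10856.5 ± 802 at 18 months (SD, n = 3 arrays each). The closest values, 10034.7 at 30 months and 10068.3 at 18 months, nearly met. The probe set of another accession, M11851_at, read 2103, 2245 and 1955 in the 6-month pools, 3009.9, 2332 and 3200.3 in the 18-month pools and 2217, 2383 and 2275 in the 30-month pools. Its log2 change was 0.42 at 18 months (SE 0.14, adjusted p = 0.469 by limma) but 0.13 at 30 months (adjusted p = 0.708). The 3 probe sets therefore placed 18 months above 6 months without overlap, while the size of the 30-month difference varied between them.

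*Tnni1*, which encodes slow troponin I, is the other slow gene that was measured. Its signals were 1129.5, 953 and 880.0 in the 6-month pools, 1284.5, 1006 and 1297 in the 18-month pools and 990.0, 995 and 1081 in the 30-month pools. The second 18-month pool lay inside the 6-month range, so the ages overlapped. The log2 change was 0.27 at 18 months (SE 0.14, adjusted p = 0.614 by limma) and 0.05 at 30 months (adjusted p = 0.899).

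**Figure D1:**
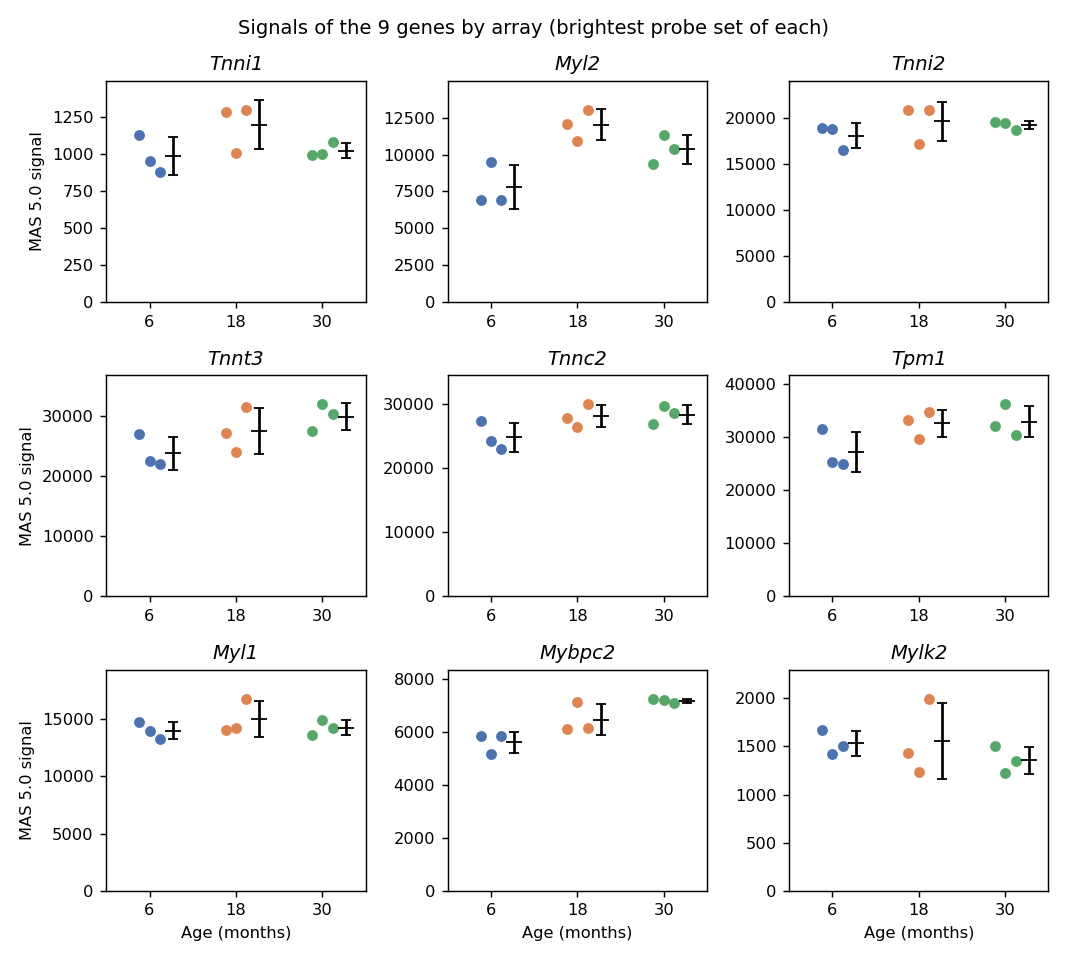
Signals of the brightest probe set of each of the 9 genes (vertical axes, MAS 5.0 signal, each from 0) against age in months; points are arrays in the order of their replicate numbers, and bars beside them give the mean ± SD of 3 arrays. *Myl2* is the gene whose 18-month arrays stand clear of the 6-month arrays by the widest margin relative to its signal, with means of 12020 and 7784.

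Fast troponin I, *Tnni2*, read 18881, 18768 and 16468 in the 6-month pools, 20848, 17109.9 and 20838 in the 18-month pools and 19557, 19378 and 18701 in the 30-month pools. The ages overlapped, with a log2 change of 0.12 at 18 months and 0.09 at 30 months (SE 0.12 each; adjusted p = 0.803 and 0.759 by limma). *Tnni2* and *Tnni1* carry the same role in fast and slow fibres, and their control regions are shown because both members of this fast and slow pair were measured. The 250 bases before each annotated start follow, from RefSeq on build GRCr8, 5′ to 3′ on the gene's strand, with each E-box (CANNTG, the core bound by MyoD and related factors, which reads the same on both strands) in capitals. *Tnni2* lies on the plus strand at chr1:207024240-207024489 and *Tnni1* on the plus strand at chr13:49781279-49781528.
Tnni2: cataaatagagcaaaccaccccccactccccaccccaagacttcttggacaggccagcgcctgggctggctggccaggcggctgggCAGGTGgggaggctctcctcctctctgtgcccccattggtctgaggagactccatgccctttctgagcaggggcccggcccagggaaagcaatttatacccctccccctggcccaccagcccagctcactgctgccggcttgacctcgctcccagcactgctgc
Tnni1: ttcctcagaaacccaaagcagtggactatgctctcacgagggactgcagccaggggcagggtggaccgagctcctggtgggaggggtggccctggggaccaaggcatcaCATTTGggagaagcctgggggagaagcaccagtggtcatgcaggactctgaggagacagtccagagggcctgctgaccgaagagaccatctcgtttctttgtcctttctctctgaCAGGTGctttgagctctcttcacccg

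The *Tnni2* window holds 1 E-box, which begins at -164 from the start, and the *Tnni1* window holds 2, at -141 and -26. An E-box occurs in 65.5% of the 33469 promoter windows of this length in the table. The letters TATAAA, searched on both strands, occur in the *Tnni2* window at -72, apart from its E-box, and not in the *Tnni1* window; 12.9% of all windows hold them. Upstream sequences were found for 7 of the 10 genes, *Tnnt1* among them, in 8 windows, 2 of them for *Myl1*, and all 8 held an E-box. The letters CATTCC occurred in 2 of the 8, on either strand, against 12.1% of all windows. A motif defined for MEF2 factors, searched on both strands, occurred in 1 of the 8, the *Myl1* start that lies further along the gene, against 2.96% of all windows. These matches describe letters only.

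The remaining troponin genes were among the strongest signals on the arrays. *Tnnt3*, fast troponin T, ranked 21 of 8740 by mean signal and read 26905.5, 22414 and 21976 in the 6-month pools, 27072, 23925 and 31470.2 in the 18-month pools and 27388, 31909.5 and 30320.4 in the 30-month pools. All 30-month pools lay above the 6-month pools, although the closest values, 27388 at 30 months and 26905.5 at 6 months, nearly met. The mean was 29872.5 ± 2294 at 30 months, against 23765 ± 2728.5 at 6 months (SD, n = 3 arrays each), a log2 change of 0.33 (SE 0.14, unadjusted p = 0.0394, adjusted p = 0.364 by limma). At 18 months its log2 change was 0.21 (adjusted p = 0.682), with overlap.

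*Tnnc2*, the calcium-binding troponin C of fast fibres, ranked 20 by mean signal and read 27318, 24213 and 22941 in the 6-month pools, 27906, 26479.7 and 29985 in the 18-month pools and 26836.5, 29695 and 28594 in the 30-month pools. The first 6-month pool lay inside the range of both later ages. The log2 change was 0.18 at 18 months and 0.20 at 30 months (SE 0.11 each; adjusted p = 0.666 and 0.486 by limma).

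*Tpm1*, which encodes α-tropomyosin in striated muscle and other isoforms elsewhere, had 5 probe sets of very different brightness. M34134_s_at ranked 9 of 8740 by mean signal and read 31582, 25255 and 24952 in the 6-month pools, 33304, 29706 and 34756 in the 18-month pools and 32170.5, 36212 and 30449 in the 30-month pools. Its ages overlapped through the first 6-month pool, with log2 changes of 0.26 at 18 months and 0.28 at 30 months (SE 0.13 each; adjusted p = 0.614 and 0.410 by limma). M15474cds_s_at gave 0.10 and 0.13, and X02412_at gave 0.25 and 0.15. The much weaker M60666_s_at lay on the other side at both ages, at -0.32 and -0.15, and averaged 373 ± 47.6, 298 ± 73.5 and 333 ± 40.3 at 6, 18 and 30 months (SD, n = 3 arrays each). rc_AI144767_s_at, at 11.5 to 48.2 on the 9 arrays, was too dim to be tested. The suffix s in 4 of these 5 names marks probe sets that can match more than 1 transcript, and which tropomyosin isoforms each one reads was not tested.

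*Myl1*, which encodes the alkali light chains of fast myosin, had the log2 change nearest to 0 at 30 months among the fast genes. It read 14753, 13928 and 13253.5 in the 6-month pools, 13999, 14229 and 16776 in the 18-month pools and 13584, 14915 and 14202 in the 30-month pools. The ages overlapped, with log2 changes of 0.10 and 0.03 (SE 0.11 each; adjusted p = 0.820 and 0.945 by limma).

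*Mybpc2*, which encodes the fast form of myosin-binding protein C, a brace between thick and thin filaments, had the lowest p of the members at 30 months. It read 5845, 5156 and 5851 in the 6-month pools, 6107, 7160.4 and 6154 in the 18-month pools and 7267, 7200.5 and 7119 in the 30-month pools. Both older ages lay above the 6-month pools without overlap, and the 30-month pools were tightly grouped, at 7195 ± 74 against 5617 ± 399 at 6 months (SD, n = 3 arrays each). The log2 change was 0.36 at 30 months (SE 0.11, unadjusted p = 0.0103, adjusted p = 0.297 by limma) and 0.20 at 18 months (adjusted p = 0.629).

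*Mylk2*, the skeletal muscle myosin light chain kinase gene, whose product phosphorylates the regulatory light chain, was the 1 gene of the 9 whose mean log2 signal was lower at both older ages, except that its 18-month difference was 0.0026 after quantile normalization. It read 1671, 1417 and 1503 in the 6-month pools, 1434, 1230.3 and 1995 in the 18-month pools and 1502, 1219 and 1350.5 in the 30-month pools. The third 18-month pool was the highest and the ages overlapped, with log2 changes of -0.0047 and -0.17 (SE 0.17 each; adjusted p = 0.999 and 0.690 by limma).

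**Figure D2:**
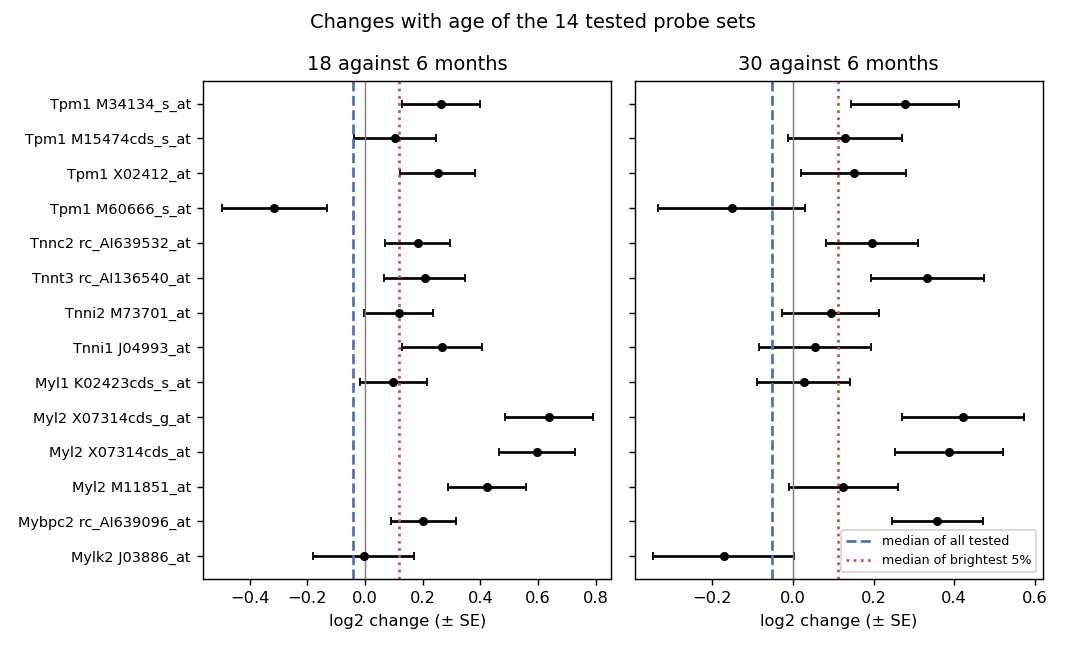
Log2 change ± SE (horizontal axes) of the 14 tested member probe sets at 18 against 6 months (left) and 30 against 6 months (right); the dashed line is the median of all tested probe sets and the dotted line that of the brightest 5%. The *Myl2* probe sets lie furthest to the right at 18 months, at 0.64, 0.60 and 0.42, and the weak *Tpm1* probe set M60666_s_at furthest to the left, at -0.32.

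By their brightest probe sets, 8 of 9 genes were on the higher side at 18 months (6 of 9 after quantile normalization) with a median log2 change of 0.20. At 30 months 8 of 9 were on that side (5 of 9 after quantile normalization), again with a median of 0.20. Over all 5244 tested probe sets the median was -0.04 and -0.05, and 42.3% and 41.2% were on the higher side. The brightest 5% of probe sets, 262 in number, had medians of 0.116 and 0.112. At 30 against 18 months the median of the 9 genes was -0.02, with 4 on the higher side, and that of all tested was -0.02.

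The deviations of the fast genes from array to array lay close to those of other bright probe sets. Averaged over *Tnnc2*, *Tnnt3*, *Tnni2*, *Myl1* and *Mybpc2*, the log2 deviation from the mean of the 9 arrays was -0.12 at 6 months, 0.04 at 18 months and 0.08 at 30 months. For the median of the 100 brightest probe sets of other genes it was -0.13, 0.07 and 0.06 at the same ages. Only the member genes were left out of those 100, so other muscle genes are among them. Examples are *Ckm*, *Acta1* and *Atp2a1*, which ranked 1, 7 and 15 by mean signal. Centring on these probe sets would also take out a change that bright muscle genes share, and such a change was not tested. Array by array both measures were lowest on the third 6-month array, at -0.19 and -0.22, and highest on the third 18-month array, at 0.14 and 0.17. Once every array was centred on those 100 probe sets, the 18-month log2 change was 0.0079 for *Tnnt3*, -0.02 for *Tnnc2*, -0.08 for *Tnni2*, -0.10 for *Myl1* and 0.0034 for *Mybpc2*, and that of *Myl2* was 0.44. At 30 months *Mybpc2* stood at 0.16, *Tnnt3* at 0.14 and *Myl2* at 0.22 on that scale, while *Mylk2* stood at -0.37. This centring moved the median of all tested probe sets to -0.24 at 18 months and -0.25 at 30 months. After quantile normalization the 9 genes had a median log2 change of 0.0026 at 18 months and of 0.04 at 30 months. Whether signals this bright still scale with RNA was not tested.

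**Figure D3:**
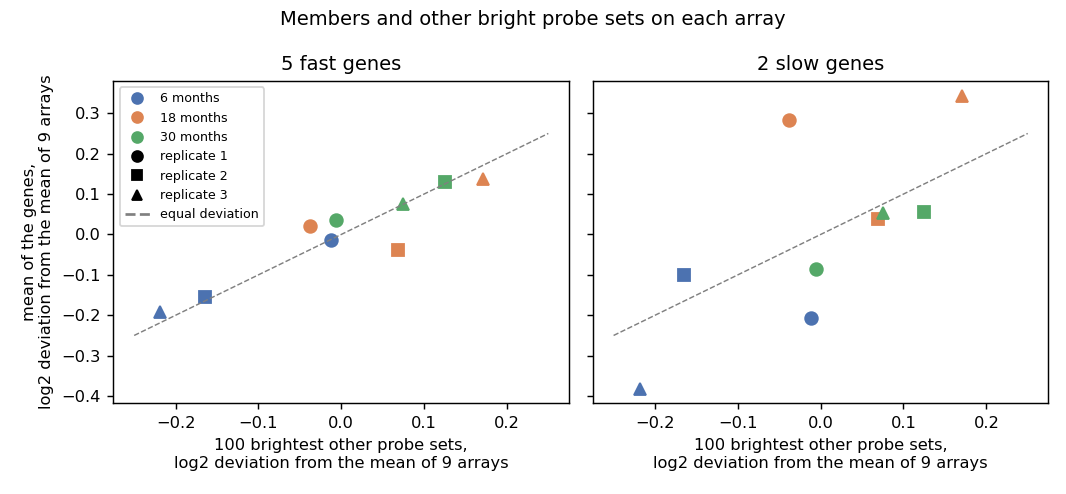
Mean log2 deviation of the 5 fast genes (left) and the 2 slow genes (right) from their mean over 9 arrays, against the median deviation of the 100 brightest probe sets of other genes; colours give age, marker shapes give replicate number, and the dashed line marks equal deviation. The fast genes stay near the line. At 18 months the slow genes stand at 0.28, 0.04 and 0.34 where the other bright probe sets stand at -0.04, 0.07 and 0.17, above the line on 2 arrays and below it on the second.

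A ratio within an array cancels a shift that both of its probe sets share, and it was taken as a difference of log2 signals. Shifts differed with brightness. At 18 against 6 months the median log2 change was -0.04 over all tested probe sets and 0.116 over the brightest 5%. They need not cancel between probe sets of unlike brightness, such as those of *Tnni2* and *Tnni1*. Its absolute value compares different probes and has no meaning as a level, so only its change between ages is described. The difference of *Myl1* minus *Myl2*, the fast alkali against the slow regulatory light chain, was 1.09, 0.55 and 0.93 in the 6-month pools, 0.21, 0.38 and 0.36 in the 18-month pools and 0.54, 0.40 and 0.45 in the 30-month pools. Every older array lay below every 6-month array. The closest pair was 0.54 on the first 30-month array and 0.55 on the second 6-month array. The mean was 0.32 ± 0.09 at 18 months and 0.46 ± 0.07 at 30 months, against 0.86 ± 0.27 at 6 months (SD, n = 3 arrays each). These means differ from the 6-month mean by -0.54 and -0.39, or 0.688 and 0.761 times the 6-month ratio. An exact permutation test of the F statistic over the 3 ages gave p = 0.00357, the smallest p this design allows, or 0.0107 adjusted over the 3 ratios computed. The higher *Myl2* at 18 months was known before this ratio was chosen, so the p restates that difference and is no separate evidence of a change. Pairs of ages were not tested. These genes encode different kinds of light chain, so they are not a matched pair of isoforms.

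The difference of *Tnni2* minus *Tnni1*, fast against slow troponin I, spanned a smaller range of group means. It was 4.03, 4.25 and 4.18 in the 6-month pools, 3.99, 4.05 and 3.97 in the 18-month pools and 4.26, 4.24 and 4.07 in the 30-month pools. The 18-month arrays lay below the 30-month arrays without overlap, and the 6-month arrays overlapped both. The difference was -0.15 at 18 against 6 months, 0.04 at 30 against 6 months and 0.19 at 30 against 18 months, and the exact permutation test over the 3 ages gave p = 0.15 (adjusted p = 0.15). After quantile normalization the differences from 6 months were -0.36 at 18 months and -0.17 at 30 months, so the sign at 30 months turned. The mean of the 5 fast genes minus the mean of *Tnni1* and *Myl2* was 2.16 ± 0.10 at 18 months and 2.41 ± 0.05 at 30 months, against 2.45 ± 0.14 at 6 months (SD, n = 3 arrays each). All 18-month arrays were below both other ages on this mean, and the 30-month and 6-month arrays overlapped. A permutation p of this mean was computed and entered the adjustment over the 3 ratios. That p is not given, because the mean is a score over the chosen genes.

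**Figure D4:**
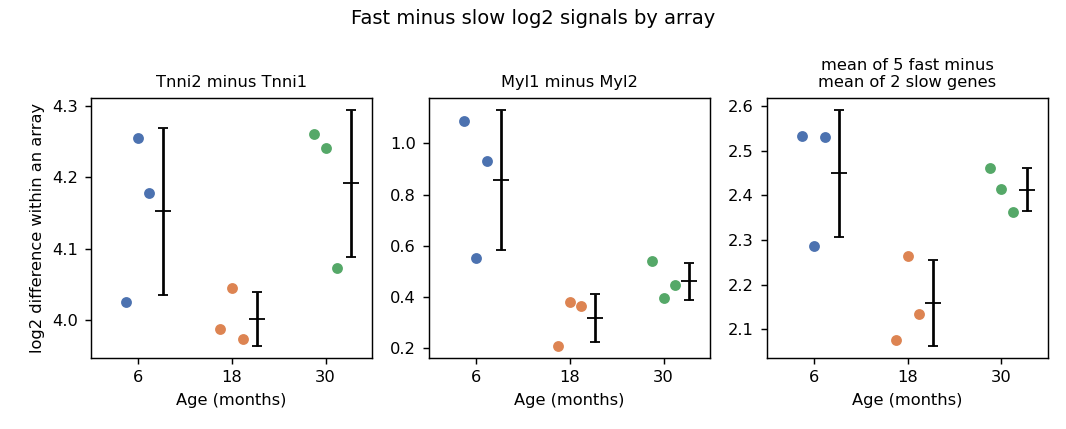
Differences of log2 signals within an array for *Tnni2* minus *Tnni1*, *Myl1* minus *Myl2*, and the mean of 5 fast minus the mean of 2 slow genes (vertical axes, log2, not starting at 0), by age in months; points are arrays and bars the mean ± SD of 3 arrays. The 18-month arrays are the lowest group in each panel, and in the light chain panel both older ages lie under the 6-month arrays.

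Other pairings, described without a test, varied with the gene chosen. *Myl11*, the fast regulatory light chain gene and the true counterpart of *Myl2*, gave a difference to *Myl2* of 1.25 ± 0.12 at 18 months and 1.43 ± 0.10 at 30 months, against 1.67 ± 0.29 at 6 months (SD, n = 3 arrays each), with overlap at both ages. This used its brightest probe set, X00975_at. The other, X00975_g_at, had larger log2 changes from 6 months, 0.36 at 18 months and 0.37 at 30 months, without overlap. The difference of X00975_g_at to *Myl2* was not computed. *Myl1* against *Myl3*, the slow alkali light chain gene, stood at 1.53 ± 0.31 at 18 months and 1.68 ± 0.12 at 30 months, against 1.75 ± 0.28 at 6 months (SD, n = 3 arrays each), again with overlap. In the pair of myosin-binding protein C genes the order was the other way. *Mybpc2* minus the slow form *Mybpc1* was -0.70 ± 0.02 at 30 months, against -1.16 ± 0.15 at 6 months (SD, n = 3 arrays each), and the 30-month arrays lay above all 6-month arrays. At 18 months its mean differed from the 6-month mean by 0.16, with overlap.

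Among other sarcomere genes, 35 of 53 listed could be tested by their brightest probe set, and 0 passed an adjusted p of 0.05 (limma). At an unadjusted p under 0.05 by limma, 5 were higher and 1 lower at 18 months than at 6 months (2.99% and 5.63% of all tested). At 30 months 5 were higher and 3 lower than at 6 months (4.18% and 8.73% of all tested). Named after their values were seen, those higher at 18 months were the Z-disc genes *Actn2* (α-actinin, log2 change 0.50) and *Ldb3* (0.49, although its other probe sets gave -0.07 and -0.02), the small heat shock protein gene *Cryab* (0.43), *Myh2* (0.51) and *Myh7* (0.72), and the lower one was the muscle LIM protein gene *Csrp3* (-0.37). At 30 months they were *Actc1* (0.27), *Actn2* (0.49), *Cryab* (0.39), *Myh2* (0.39) and *Myh7* (0.60), and the lower ones *Neb*, which encodes the thin filament protein nebulin (-0.31), *Csrp3* (-0.42) and *Myh8* (-1.72). The other *Myh7* probe set gave 0.98 at 18 months and 0.99 at 30 months, and the other *Cryab* probe set 0.22 and 0.18. Which heavy chain transcripts the brightest *Myh7* probe set, X15939_f_at, reads was not tested. In the thin filament and Z-disc group, 10 of 16 genes were on the higher side at 18 months with a median log2 change of 0.16. Of all tested probe sets 42.3% were on that side, and the brightest 5% had a median of 0.116. Skeletal α-actin, *Acta1*, showed log2 changes of 0.23 and 0.24 at 18 and 30 months. The cardiac counterparts of the troponin genes were dim. *Tnnt2* read 39, 21.5 and 31.3 and *Tnni3* 125, 95.4 and 85.2 on average at 6, 18 and 30 months. Tropomyosin genes other than *Tpm1* had small values, with 18-month log2 changes of -0.17 for *Tpm2*, -0.13 for *Tpm3* and -0.05 for *Tpm4*. *Actc1*, cardiac α-actin, averaged 26716, 31739.6 and 32316 at 6, 18 and 30 months through a probe set of the shared kind, and its overlap with skeletal α-actin was not tested.

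In the thick filament group, 12 of 16 genes were on the higher side at 18 months with a median of 0.19, beside 42.3% of all tested and a median of 0.116 for the brightest 5%. *Myl11* had log2 changes of 0.21 and 0.18 at 18 and 30 months (0.36 and 0.37 by its other probe set), *Myl3* 0.31 and 0.09, and *Mybpc1* 0.04 and -0.10. Among heavy chain genes the 18-month log2 change was 0.72 for slow *Myh7*, 0.51 for fast *Myh2*, 0.29 for the cardiac form *Myh6*, 0.25 for *Myh1*, 0.18 for *Myh3*, 0.17 for *Myh4*, -0.03 for *Myh13* and -0.89 for *Myh8*, the perinatal form. Other, dimmer *Myh3* probe sets gave -0.44 (K03468_s_at, lower without overlap), -0.12 and 0.17, and K03467_s_at, too dim to be tested, gave 0.29. Dimmer *Myh6* probe sets gave 0.66 (rc_AI104924_f_at) and 0.16 (rc_AI103920_f_at). Which heavy chain transcripts the *Myh6* probe sets read was not tested. The values of *Myh8* spread widely at 6 months, at 618 ± 679 (SD, n = 3 arrays). Of the regulators of light chain phosphorylation other than *Mylk2*, 3 of 8 could be tested. By their brightest probe sets the 18-month log2 changes were -0.18 for *Calm2*, 0.10 for *Ppp1cb* and -0.19 for *Ppp1r12a*. The other *Ppp1cb* probe set gave -0.11. For *Ppp1r12a* the others gave -0.47 (U50185_g_at, lower without overlap) and 0.10 (S74907_at).

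Over the 9 arrays the slow pattern, the mean of *Tnni1* and *Myl2*, was most like that of *Cdc5l* (Pearson r = 0.956), *Phax* (0.923), *Myh7* (0.905), *Lrch4* (0.904) and *Zfp775* (0.897). Of these, *Myh7* is a gene of the slow sarcomere, *Cdc5l* encodes a splicing factor and *Phax* an RNA export adaptor. Those other than *Myh7* have mean signals under 400 at every age. The fast pattern was most like that of *Acta1* (0.973), *H19* (0.942), *Slc25a4* (0.936), *COX3* (0.933) and *Ckm* (0.930), all bright probe sets. *Slc25a4* encodes a mitochondrial ADP/ATP carrier, *COX3* a subunit of cytochrome oxidase and *Ckm* muscle creatine kinase, and *H19* is a noncoding RNA gene. These correlations rank genes across arrays that share scaling and age, and they are descriptions only.

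Marker sums are given beside these values. The slow-fibre list, *Myh7*, *Atp2a2*, *Casq2*, *Myl3*, *Tpm3* and *Pln*, had 5 of 6 genes on the higher side at 18 months, and its summed signal was 21214 to 25992 at 18 months and 22188 to 22608 at 30 months, against 17656 to 22051 at 6 months. At 30 months 6 of 6 slow-fibre genes were on the higher side, most of them by little. The log2 changes were 0.60 for *Myh7*, 0.19 for *Casq2*, 0.11 for *Atp2a2*, 0.09 for *Myl3* and 0.01 for *Tpm3*, and *Pln* was too dim to be tested. Of all tested probe sets 42.3% and 41.2% were on the higher side at 18 and 30 months. The brightest 5% had median log2 changes of 0.116 and 0.112. The fast-fibre list had 7 of 7 genes higher at 18 months and at 30 months. Its sums were 141696 to 167888 and 143270 to 154391 at these ages, against 116408 to 134610 at 6 months. The fibroblast list had 0 of 6 genes higher, with sums of 11686 to 12573 at 18 months and 13031 to 13198 at 30 months, against 15958 to 20000.4 at 6 months. Nerve and Schwann cell markers had 0 of 4 higher at 18 months, with sums of 2217 to 2531 against 2512 to 3184 at 6 months. Smooth muscle markers had 1 of 4 higher at 18 months, with sums of 2276 to 2713 against 2158.5 to 2746 at 6 months. The part of these lists in the member values was not tested.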

How the data were processed

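Posterior cricoarytenoid RNA was measured on 9 arrays, 3 per age, grouped by the age in the labels. Per the labels' design text, the authors hybridized biotinylated cRNA and analysed the scans with Microarray Suite 5.0. The deposited values are signal intensity on a linear scale, already scaled by the authors; they ran from 0.1 to 48487.6. From the table, 59 control probe sets were left out, leaving 8740, and log2(signal + 32) was computed. Folds understate changes of dim probe sets on that scale. The upper 60% by mean, 5244 probe sets, were tested with limma 3.58.1 in R 4.3.3, with 1 mean per age (6 residual degrees of freedom), two-sided p-values and Benjamini-Hochberg adjustment over all of them. Detection calls were not used here. The 3 arrays per age limit the precision.

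Gene names came from the platform annotation, and all 15 member probe sets matched the RefSeq table. All member probe sets are named, and the brightest over all arrays stands for its gene. Of other sarcomere genes, those past the threshold, counterparts of members and heavy chains are named, and of genes with a like pattern the 5 highest Pearson correlations. Ratios were tested by exact permutation over the 9 arrays; 3 against 3 arrays cannot go below an exact p of 0.1, so pairs of ages were not tested. The planned troponin T ratio could not be made without *Tnnt1*. The members, lists and tests were chosen with earlier results of these data known, among them a higher *Myl2* at 18 months, so that gene and the light chain ratio are no independent evidence. The fits and the permutation test were tested on simulated data.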

Additional observations from a re-analysis of the deposited data

How the results depend on the processing

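No member passed an adjusted p of 0.05 by limma under any alternative: a smaller and a larger pseudocount, quantile normalization, no filter, the upper 40%, a variance trend, a replicate block, each array left out, and, added after seeing the data, centring on the 100 brightest other probe sets. The lowest adjusted p of a member was 0.0736 at 18 against 6 months, with the variance trend. The exact permutation p of the light chain ratio, which rests on a *Myl2* difference already known and so gains no support from these repeats, was 0.0036 to 0.0464 without 1 array in turn, 0.0071 after quantile normalization and 0.0143 with the weaker *Myl2* probe set, chosen after seeing the data. Deviations of arrays with the same number correlated at -0.02 to 0.26, over 0.1 in 4 of 9 pairs, and those of arrays with different numbers at -0.21 to 0.15, over 0.1 in 2 of 18. All pairs of replicate 1 were over 0.1, while the third 6-month array correlated best with the second 18-month array (0.15). Since not every same-number pair was over 0.1, the numbers were not taken as pairs. That rule is no test of an effect shared by arrays of the same number. Between 18 and 30 months the same-number pairs had the highest correlations, at 0.26, 0.22 and 0.085. With the replicate block the permutation p was 0.0278 for the light chain ratio, the smallest p that the blocked test allows. It was 0.2222 for the troponin I ratio, and 0 members were called. The mean fast minus slow difference at 18 against 6 months moved to -0.41 under quantile normalization. The troponin T ratio was not run.

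Small changes turned sign. At 18 against 6 months quantile normalization gave -0.044 for *Tnnc2*, -0.072 for *Tnni2*, -0.026 for *Myl1* and 0.0026 for *Mylk2*, and the added centring gave -0.017 for *Tnnc2*, -0.083 for *Tnni2* and -0.10 for *Myl1*. At 30 against 6 months they gave -0.011 and -0.0010 for *Tnnc2*, -0.11 and -0.10 for *Tnni2*, and -0.084 and -0.17 for *Myl1*, and the centring gave -0.14 for *Tnni1*. At 30 against 18 months quantile normalization gave -0.025 for *Tpm1*. With 1 array left out, the ranges that crossed 0 were -0.20 to 0.15 for *Mylk2* at 18 against 6 months, and -0.022 to 0.15 for *Tnni1* and -0.011 to 0.066 for *Myl1* at 30 against 6 months. At 30 against 18 months they were -0.055 to 0.070 for *Tpm1*, -0.029 to 0.061 for *Tnnc2*, -0.12 to 0.025 for *Tnni2*, -0.12 to 0.011 for *Myl1* and -0.32 to 0.025 for *Mylk2*. The cause was not tested. Few arrays per age and the untested linearity of the brightest signals limit these values.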
